A study of Mus musculus with 9 samples.

Results

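The potassium channel genes described here are the 90 gene names of the deposited table, of 23420 in all, that begin with Kcn followed by a family letter code and a number. The glial inward rectifiers Kcnj10 and Kcnj16 were left out by the rule. A member is described where its level reached 1 TPM in at least 3 of the 9 libraries. TPM is a level already divided by gene length and scaled to the same total in every library. Levels of different genes can be compared as far as the lengths used hold. 53 of the 90 passed, out of 13839 genes of the table that passed the same limit, and 37 stayed below it. The cells were neural stem cells grown from the hippocampus of wild-type C57BL/6J mice 2 days old, and all were held in a medium lacking the growth factors bFGF and EGF, which favours differentiation. Libraries came from cells given the vehicle DMSO (n = 3), 3 µM NAT, a small molecule known in the labels by that name alone (n = 3), or 3 µM P7C3-A20 (n = 3), a carbazole compound studied for its neuroprotective action. The labels name the libraries biological replicates but do not tie them to different dishes or mice, and the p-values refer only to how much these 9 libraries vary, which may be technical. Neither the length of treatment nor the number of mice is given there.

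Potassium channels let potassium ions leave, or in some conditions enter, a cell, and so set its resting voltage and end its electrical impulses. Voltage-gated channels open on depolarization, calcium- or sodium-activated channels open when those ions rise inside the cell, inward rectifiers and two-pore-domain channels hold the resting potential, and auxiliary subunits change how the pore proteins open or travel to the membrane. Neural progenitors and astrocytes carry leak-type potassium currents, and neurons gain voltage-gated currents as they mature.

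What all pore proteins share is the selectivity filter, a short stretch of the pore loop that lets potassium through and holds back sodium. The members' coding sequences (GENCODE M21, mouse build GRCm38, the longest complete coding sequence of each gene) were searched on the coding strand for 5 codons in a row encoding threonine or serine, then valine, isoleucine, leucine or threonine, then glycine, then tyrosine, phenylalanine or leucine, then glycine. These choices include variants that members carry, so the counts are a description of the family. A match stood once in each of the 40 voltage-gated, 8 calcium- or sodium-activated and 13 inward rectifier genes, and 2 times in each of the 14 two-pore-domain genes. None of the 15 auxiliary genes held one. Of 21411 other mouse genes with a coding sequence, 272 (1.27%) held a match. The stretches below, 5′ to 3′, are those of some members that lead a class or recur in the comparisons, with the 15 bases of the filter codons in capitals and 9 bases on each side.
Kcnd3: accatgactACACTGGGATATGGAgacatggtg
Kcna2: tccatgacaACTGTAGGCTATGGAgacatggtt
Kcnh2: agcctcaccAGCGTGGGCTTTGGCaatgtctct
Kcnt1: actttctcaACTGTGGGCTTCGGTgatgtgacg
Kcnk2, first filter: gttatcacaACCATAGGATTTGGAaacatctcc
Kcnk2, second filter: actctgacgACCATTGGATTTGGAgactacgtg
Kcnk1, first filter: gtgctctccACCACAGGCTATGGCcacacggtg
Kcnk1, second filter: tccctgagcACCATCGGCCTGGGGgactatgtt

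The fourth filter codon varied within the classes. Outside the two-pore genes, and with 2 genes left out whose stretches were not used here, it encoded tyrosine in 46 genes and phenylalanine in 13, and those 13 were all 8 Kcnh genes, Kcnj8, Kcnj11, Kcnt1, Kcnt2 and Kcnu1. In the two-pore genes the first filter had tyrosine in 11 and phenylalanine in 3 (Kcnk2, Kcnk12 and Kcnk13), and the second had phenylalanine in 11 and leucine in 3 (Kcnk1, Kcnk6 and Kcnk7).

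Recovered reads came to 12028821 to 14109316 a library in DMSO, 12994081 to 13803959 in NAT and 15885313 to 17217584 in P7C3-A20. Every P7C3-A20 library was thus deeper than every other library, and the part of depth in the comparisons was not tested. The 8 progenitor markers (Nes, Sox2, Fabp7, Vim and others) were all measured and summed to between 15843 and 17631 TPM. Most of that sum was Fabp7, at 10636 to 12411 TPM. The 10 neuronal markers summed to 751.9 to 818 TPM. The 8 astrocyte markers summed to 6026 to 7086 TPM and the 9 markers of the oligodendrocyte lineage to 3479 to 4204 TPM. Most of the neuronal sum was Map2, at 583 to 653.3 TPM. Tubb3, Elavl3, Elavl4, Dcx and Snap25 had means of 14.1 to 47.6 TPM. Rbfox3, Syt1 and Nefl had means of 1.77, 2.14 and 3.62 TPM, and Stmn2 stayed below the limit. Markers of several neural lineages were thus present, at uneven levels within a list. In such bulk RNA fewer cells of a type and less RNA per cell cannot be told apart. The microglial list summed to at most 2.142 TPM with Cx3cr1, C1qc and Trem2 at 0, and the endothelial list to at most 7.4 TPM with Cdh5 and Cldn5 at 0. The mural list summed to 54.48 to 66.77 TPM, nearly all of it Cspg4, which oligodendrocyte progenitors also express. In the blood list Hba-a1 and Hbb-b1 were at 0, while Alas2 passed the limit at 0.895 to 3.425 TPM.

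The described potassium channel genes were weakly expressed and uneven. Their median level over the 9 libraries was 4.81 TPM against 26.4 TPM for all 13839 tested genes, and the 90 members together held between 0.102% and 0.111% of a library's TPM. The 10 highest genes held between 80.8% and 82.2% of that sum. Of the 53, 2 had a mean over 100 TPM, 6 lay between 50 and 100, 7 between 10 and 50, 20 between 2 and 10, and 18 under 2. Reads in a library ran from 0 (Kcnmb3) to 6830 (Kcnd3), and 26 of the 53 had fewer than 50 reads in some library. The spread followed: the coefficient of variation within groups had a median of 6% in the 15 genes of at least 10 TPM and of 15.7% in the 38 below, with the highest, 59.6%, in Kcnmb3.

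**Figure D1:**
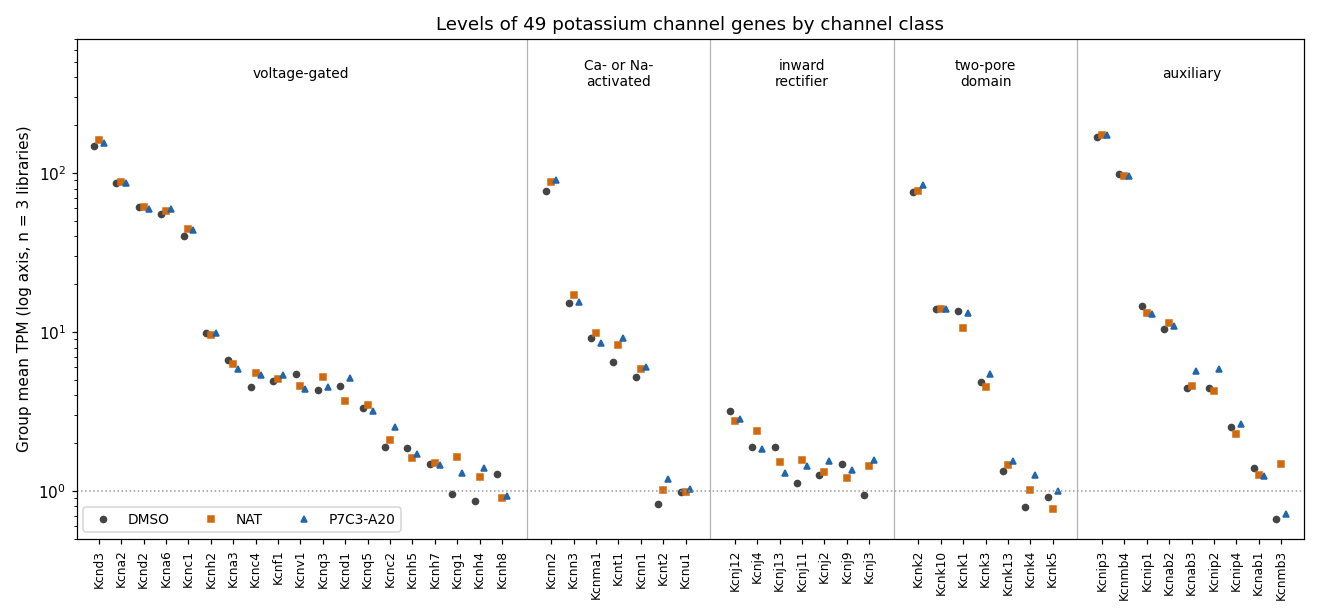
Mean TPM of 49 of the 53 described potassium channel genes in the DMSO, NAT and P7C3-A20 groups (3 libraries each) on a log axis, arranged by channel class and ordered by level within each class; the dotted line marks 1 TPM. In every class 2 to 5 of the genes shown have a mean above 10 TPM except the inward rectifiers, none of which passed 3.73 TPM in any library.

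Voltage-gated channels made up the largest class, with 40 members of which 23 were described. The Shal-type family Kcnd, which carries the fast A-type current, led it. Kcnd3 stood at 149.3, 143.9 and 150.1 TPM in DMSO, 159.1, 162.1 and 164.1 in NAT and 154.1, 152.2 and 159.7 in P7C3-A20. Its relative Kcnd2 stood at 63.7, 58.2 and 62 TPM in DMSO, 62.1, 59.8 and 60.8 in NAT and 59.7, 57.3 and 60.7 in P7C3-A20. Kcnd3 was thus the higher of the pair in every library, by 2.35 to 2.71 times, and Kcnd1 had a mean of only 4.49 TPM. The ratio of Kcnd3 to Kcnd2 was 2.35 to 2.47 in DMSO, below the 2.56 to 2.71 of NAT and the 2.58 to 2.66 of P7C3-A20. This ratio was not tested, the groups overlapped for Kcnd2 itself, and neither gene was called by limma in any comparison.

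Of the 8 Shaker-type Kcna genes, which give low-threshold currents, 3 were described. Kcna2 stood at 85.9, 85.8 and 89.4 TPM in DMSO, 86.6, 87.4 and 89.8 in NAT and 91.3, 86.5 and 83.4 in P7C3-A20. Kcna6 stood at 54.6, 57.1 and 54.7 TPM in DMSO, 56.9, 59.6 and 56.7 in NAT and 59, 57.6 and 61 in P7C3-A20. The groups overlapped for Kcna2, and for Kcna6 only P7C3-A20 and DMSO did not. Kcna3 had a mean of 6.26 TPM, and Kcna1, Kcna4, Kcna5, Kcna7 and Kcna10 stayed under the limit.

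The Shaw-type Kcnc genes encode channels that switch fast and serve rapid firing. Kcnc1 stood at 39.2, 41.2 and 40 TPM in DMSO, 44.5, 44.6 and 45.1 in NAT and 43.8, 43.2 and 45.2 in P7C3-A20. It was lowest in the DMSO libraries, which neither compound group overlapped. Kcnc4 and Kcnc2 had means of 5.15 and 2.17 TPM.

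Other voltage-gated genes were lower. Kcnh2, the ERG channel of repolarization, had a mean of 9.79 TPM, and Kcnh5, Kcnh7, Kcnh4 and Kcnh8 between 1.04 and 1.73 TPM. In the M-current family Kcnq, Kcnq3 had a mean of 4.68 and Kcnq5 of 3.35 TPM. Among the silent subunits, which form channels only with other pore proteins, Kcnf1 had a mean of 5.11, Kcnv1 of 4.81 and Kcng1 of 1.3 TPM.

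Among the 8 calcium- or sodium-activated genes 7 were described. Kcnn2, a small-conductance channel that follows spikes with a slow outward current, stood at 76.2, 74 and 81.3 TPM in DMSO, 81, 96.5 and 84.8 in NAT and 91.5, 94.6 and 86.1 in P7C3-A20. Its 3 P7C3-A20 libraries lay above all DMSO libraries, while NAT and DMSO overlapped at 1 library of each. Its relatives Kcnn3 and Kcnn1 had means of 16 and 5.71 TPM. Kcnma1, the pore of the large-conductance calcium-activated channel, had a mean of 9.18 TPM, and the sodium-activated Kcnt1 of 7.96 TPM. Kcnt2 and Kcnu1 lay at 1.01 and 1 TPM. Kcnu1, known as a channel of sperm, was placed in this class by its family and not by what opens it.

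The two-pore-domain class had 7 of 14 members described and rested on Kcnk2, a leak channel that responds to membrane stretch. Kcnk2 stood at 69.9, 74.7 and 82.7 TPM in DMSO, 73, 80.1 and 78.3 in NAT and 78.1, 79.5 and 94.7 in P7C3-A20. All 3 groups overlapped. It was 1.82 to 2.64 times as high as the other 13 Kcnk genes summed. Its close relatives Kcnk10 and Kcnk4 had means of 13.9 and 1.03 TPM, the weakly rectifying leak channel Kcnk1 of 12.4, the acid-sensitive leak channel Kcnk3 of 4.94, Kcnk13 of 1.44 and Kcnk5 of 0.901 TPM.

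Inward rectifiers were sparse once Kcnj10 was set aside. The 7 described of 13 had means of 1.31 to 2.93 TPM, led by Kcnj12 and Kcnj4 of the strongly rectifying branch. Kcnj3 and Kcnj9, subunits of the channels that G proteins open, had means of 1.31 and 1.35 TPM, and Kcnj11, the pore of the ATP-sensitive channel, of 1.38 TPM. The left-out Kcnj10, the main potassium-buffering channel of astrocytes, was 16.3 to 20.8 times as high as the 13 members summed.

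Auxiliary subunits, 9 of 15 described, included the highest member of all. Kcnip3, a calcium-binding protein also called calsenilin that attaches to Kcnd channels, stood at 174.6, 167 and 163.5 TPM in DMSO, 171.9, 175.4 and 173.6 in NAT and 169.1, 167.4 and 181.9 in P7C3-A20. Kcnmb4, the neuronal partner of Kcnma1, stood at 101.5, 94.4 and 98.8 TPM in DMSO, 94.3, 96.4 and 96.2 in NAT and 88.9, 97.9 and 101 in P7C3-A20. The groups overlapped for both genes. The 4 Kcnip genes summed to 0.841 to 0.91 times the 3 Kcnd genes. Kcnmb4 was 9.19 to 12.8 times as high in TPM as its pore partner Kcnma1. In reads the pair was closer, at 406 to 611 and 302 to 428 a library. Much of that ratio thus rests on the gene lengths behind TPM, whose annotation is not named. The remaining described auxiliary genes had means of 13.5 TPM (Kcnip1), 11 (Kcnab2), 4.91 (Kcnab3), 4.85 (Kcnip2), 2.47 (Kcnip4), 1.29 (Kcnab1) and 0.958 (Kcnmb3). The 3 Kcnab genes, partners of the Shaker-type channels, summed to 0.1 to 0.122 times the 8 Kcna genes.

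Among the highest members the order by mean level ran Kcnip3 (172 TPM), Kcnd3 (155), Kcnmb4 (96.6), Kcna2 (87.4), Kcnn2 (85.1), Kcnk2 (79), Kcnd2 (60.5), Kcna6 (57.4) and Kcnc1 (43). Between neighbours in this order the 9-library ranges were separate from Kcnd3 to Kcnmb4, from Kcnk2 to Kcnd2 and from Kcna6 to Kcnc1. The ranges of the other neighbours in it overlapped, although Kcnip3 was above Kcnd3 within each of the 9 libraries.

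Of 20 families 18 had a described member, and Kcne and Kcns had none. The highest level of any of the 4 Kcne genes, small single-span partners of Kcnq and other channels, was 0.841 TPM, and of the 3 silent Kcns genes 0.641 TPM. Kcnk15, Kcnk16, Kcne3 and Kcnj1, the last known as a kidney channel, were listed at 0 in all 9 libraries. Just inside the limit, by the third-highest library, were Kcnk5 (1.053 TPM), Kcnt2 (1.106) and Kcnk4 (1.118), and just outside were Kcnn4 (0.803), Kcne2 (0.773) and Kcna4 (0.716). 40 described genes were at 1 TPM or more in all 9 libraries, and 13 were not.

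Each compound was then compared with DMSO, and the compounds with each other, in 1 limma fit over the 13839 genes, on log2(TPM + 1). That scale understates changes of genes near 1 TPM. Both comparisons with DMSO rest on the same 3 DMSO libraries, and the comparison of the compounds reuses their libraries. No potassium channel gene was called in any comparison at an adjusted p of 0.05, so the values below are those of genes among the 5 of lowest p in each, and none of them passed the test.

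In NAT against DMSO, 0 of 53 members were called by limma, beside 4 (0.0289%) of all tested genes, and voom on the recovered reads called 0 members and 36 genes in all. At an unadjusted p under 0.05, 6 members (11.3%) were higher beside 8.67% of all tested genes, and 1 (1.89%) was lower beside 3%. All 3 NAT libraries lay above all 3 DMSO libraries in 6 members (11.3%, against 14.1% of all genes) and below them in 2 (3.77%, against 4.89%). These shares are near the background, and the 6 without overlap include Kcnj3, which was under 1 TPM in all 3 DMSO libraries. Without DMSO replicate 2 the count at an unadjusted p under 0.05 was 4 members, 3 of them higher, beside 8.97% of all genes in either direction. The median difference of the 53 was 0.03 on the log2 scale, and that of all tested genes 0.03.

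The leak channel Kcnk1 had the lowest p. It stood at 13.2, 13.8 and 13.7 TPM in DMSO and at 9.62, 11 and 11.2 in NAT, with no overlap, a log2 difference of -0.33 ± 0.08 (SE, 95% interval -0.51 to -0.15). Its limma adjusted p was 0.2249 (unadjusted 0.001881). Kcnd3 was 0.13 ± 0.03 higher on the log2 scale without overlap (limma adjusted p = 0.2249). Kcnc1 was 0.15 ± 0.04 higher without overlap (limma adjusted p = 0.2332).

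Kcnc4, a further Shaw-type gene, stood at 4.6, 4.19 and 4.75 TPM in DMSO and 5.51, 5.34 and 5.8 in NAT, a log2 difference of 0.25 ± 0.09 (limma adjusted p = 0.3437). Kcnn2 differed by 0.18 ± 0.06 with overlapping groups (limma adjusted p = 0.3452), and by 0.10 without NAT replicate 2. The remaining members at an unadjusted p under 0.05 were Kcnt1 and Kcng1, at group means of 6.5 and 8.25 TPM and of 0.961 and 1.64 TPM in DMSO and NAT. For the 15 genes of at least 10 TPM the 95% intervals reached from -0.51 (Kcnk1) to 0.33 (Kcnn3) at the widest. Beside these values, the astrocyte list summed to 6386 to 6669 TPM in DMSO and 6916 to 7086 in NAT, the progenitor list to 17146 to 17631 and 16444 to 16869, and the list of the oligodendrocyte lineage to 3647 to 3799 and 3479 to 3631. None of these lists overlapped between the groups, and their part in the result was not tested. Fabp7, most of the progenitor sum, had means of 12202.1 TPM in DMSO and 11411.4 in NAT. Nes, Vim and Hes5 also had lower means in NAT, while Sox2, Pax6, Mki67 and Top2a had higher ones.

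**Figure D2:**
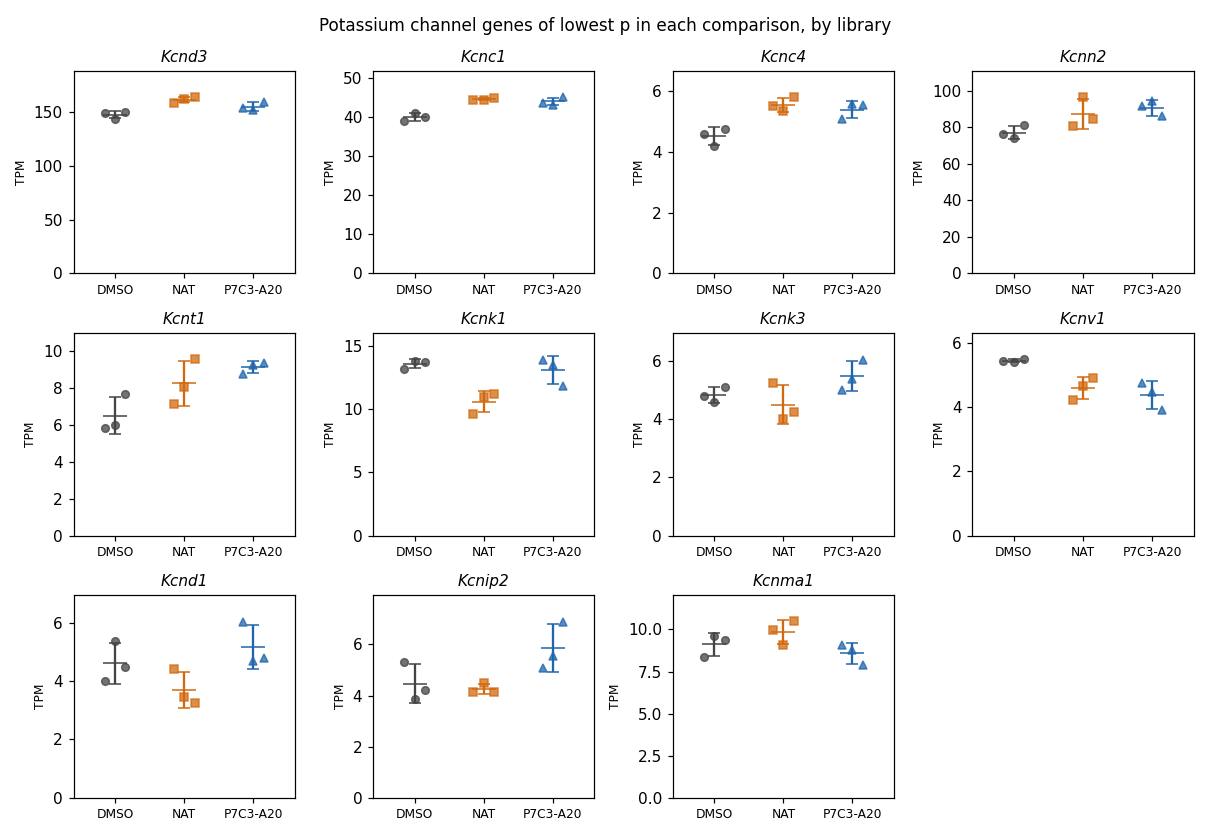
TPM of 11 potassium channel genes among the 5 lowest p of any comparison, in each DMSO, NAT and P7C3-A20 library (points), with the group mean and SD (bars, n = 3); each axis starts at 0. Kcnk1 lies at 9.62 to 11.2 TPM in NAT and at 11.8 TPM or more in the other 6 libraries, and Kcnc1 lies at 39.2 to 41.2 TPM in DMSO and at 43.2 TPM or more elsewhere.

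In P7C3-A20 against DMSO, 0 of 53 members were called by limma, beside 3 (0.0217%) of all tested genes. At an unadjusted p under 0.05, 10 members (18.9%) were higher beside 10.7% of all tested genes, and 1 (1.89%) was lower beside 5.12%. All P7C3-A20 libraries lay above all DMSO libraries in 11 members (20.8%, against 13.1%) and below them in 2, Kcnv1 and Kcnh8 (3.77%, against 7.49%). The median difference was 0.07 on the log2 scale for the 53 and 0.01 for all tested genes.

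Kcnt1, the sodium-activated channel, had the lowest p. It stood at 5.82, 6.01 and 7.66 TPM in DMSO and 8.77, 9.26 and 9.38 in P7C3-A20, without overlap, a log2 difference of 0.44 ± 0.12 (95% interval 0.19 to 0.70). Its limma adjusted p was 0.1581 (unadjusted 0.002992). Kcnn2 was 0.23 ± 0.06 higher (limma adjusted p = 0.1693) and Kcnc1 0.13 ± 0.04 higher (limma adjusted p = 0.1785).

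The silent subunit Kcnv1 went the other way, at 5.44, 5.41 and 5.49 TPM in DMSO and 4.75, 4.48 and 3.9 in P7C3-A20, a log2 difference of -0.27 ± 0.10 (limma adjusted p = 0.2403). None of these 4 genes had overlapping groups. Higher at an unadjusted p under 0.05 were also Kcnc2, Kcnc4, Kcna6, Kcnh4, Kcnip2 and Kcnj3. Of these, Kcnh4 (0.679 to 0.973 TPM) and Kcnj3 (0.903 to 0.974 TPM) were under 1 TPM in every DMSO library. They passed the limit through the compound libraries alone, on 11 to 36 and 7 to 19 reads a library. For the 15 genes of at least 10 TPM the intervals reached down to -0.40 (Kcnip1) and up to 0.40.

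Voom on the recovered reads called 4 members in this comparison, Kcnt1, Kcnn2 and Kcnc1 among them, and 468 of all tested genes. The voom adjusted p-values were 0.008696 for Kcnt1, 0.0239 for Kcnn2 and 0.03618 for Kcnc1. Over the alternatives tried, the adjusted p ran from 0.008696 to 0.4238 for Kcnt1, from 0.0239 to 0.4238 for Kcnn2 and from 0.03618 to 0.7057 for Kcnc1.

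Base composition moved with this comparison. The slope of the log2 level on GC content, per 10 percentage points over 13712 genes, was -0.0524, -0.0224 and -0.0065 in the DMSO libraries and 0.0159, 0.0366 and 0.1138 in the P7C3-A20 libraries, and -0.0619, 0.0072 and -0.0302 in the NAT libraries. The described members had a median GC content of 53.3% against 49.7% for all tested genes. With a smooth GC trend removed from each library, 5 members (4 of them higher) had an unadjusted p under 0.05, beside 11% of all genes in either direction. The same counts were found without P7C3-A20 replicate 3, the library of the steepest slope, beside 12% of all genes. Without DMSO replicate 1 the counts were 6 and 5, beside 10.1%, and after quantile normalization 7 and 6, beside 16%. With the trend removed, the median difference of the members was 0.0418 beside -0.0010 for all genes. Then 34 members had a positive difference, where 35 had before. The difference of Kcnc1 with the trend removed was 0.04 (limma adjusted p = 0.7016). Kcnt1 was at 0.38 (limma adjusted p = 0.2983), Kcnn2 at 0.17 (limma adjusted p = 0.359) and Kcnv1 at -0.21 (limma adjusted p = 0.4375) under the same removal. The progenitor list summed to 15843 to 16425 TPM in P7C3-A20 and 17146 to 17631 in DMSO, and its part was not tested. Fabp7 had means of 10931.9 TPM in P7C3-A20 and 12202.1 in DMSO. Nes, Hes5, Mki67 and Top2a also had lower means in P7C3-A20, while Sox2, Vim and Pax6 had higher ones.

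NAT and P7C3-A20, given at the same dose, were compared directly. 0 of 53 members and 0 of 13839 tested genes (0%) were called by limma. Unadjusted, 2188 of all genes had a p under 0.05, and voom on the recovered reads called 254 genes and 0 members. At an unadjusted p under 0.05 no member was higher in NAT (0%, against 9.92% of all genes), and 3 members (5.66%, against 5.89%) were lower. All NAT libraries lay above all P7C3-A20 libraries in 1 member, Kcnn3 (1.89%, against 13.3%), and below them in 7 (13.2%, against 8.35%). The median difference was -0.04 for the 53 and 0.01 for all genes, and without P7C3-A20 replicate 2 that of the members turned to 0.0092. Without that library, or without NAT replicate 2, 5 members had an unadjusted p under 0.05, 1 of them higher, beside 14.9% and 15.4% of all genes. By voom there were 8 such members (1 higher) beside 17.6%.

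Kcnk1 again had the lowest p, with P7C3-A20 libraries at 13.9, 13.5 and 11.8 TPM, all above the NAT libraries, and a log2 difference of -0.28 ± 0.08 (limma adjusted p = 0.1961). The Kcnd partner Kcnip2 stood at 4.15, 4.5 and 4.12 TPM in NAT and 5.09, 5.56 and 6.89 in P7C3-A20, a difference of -0.37 ± 0.13 (limma adjusted p = 0.2284). Kcnd1 stood at 4.41, 3.44 and 3.24 TPM in NAT and 6.04, 4.69 and 4.79 in P7C3-A20, a difference of -0.40 ± 0.14 (limma adjusted p = 0.2313). Kcnip2 rested on 41 to 99 reads a library and Kcnd1 on 29 to 68.

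Those 3 genes had no overlap between the compounds. Kcnk3 (-0.24 ± 0.11, limma adjusted p = 0.3258) and Kcnma1 (0.18 ± 0.09, limma adjusted p = 0.343) overlapped. Over the 15 genes of at least 10 TPM the 95% intervals of the difference between compounds stayed within -0.46 (Kcnk1) and 0.31 (Kcnn3) on the log2 scale. Beside these values, 3 marker lists did not overlap between the compounds. In NAT and P7C3-A20 the astrocyte list summed to 6916 to 7086 and 6026 to 6855 TPM, the progenitor list to 16444 to 16869 and 15843 to 16425, and the list of the oligodendrocyte lineage to 3479 to 3631 and 3633 to 4204. Their part in these differences was not tested. Slc1a3 and Olig1 were the largest genes of the astrocyte and oligodendrocyte lists. P7C3-A20 replicate 3 had the lowest Slc1a3 (1811.4 TPM) and the highest Olig1 (2530.1 TPM) of all libraries. Aldh1l1 of the astrocyte list went the other way, with means of 1584.8 TPM in NAT and 1627.0 in P7C3-A20. Fabp7, most of the progenitor sum, had means of 11411.4 TPM in NAT and 10931.9 in P7C3-A20. Pax6, Mki67 and Top2a also had higher means in NAT, while Nes, Sox2, Vim and Hes5 had lower ones. The intervals bound the differences and do not show that the compounds act alike.

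**Figure D3:**
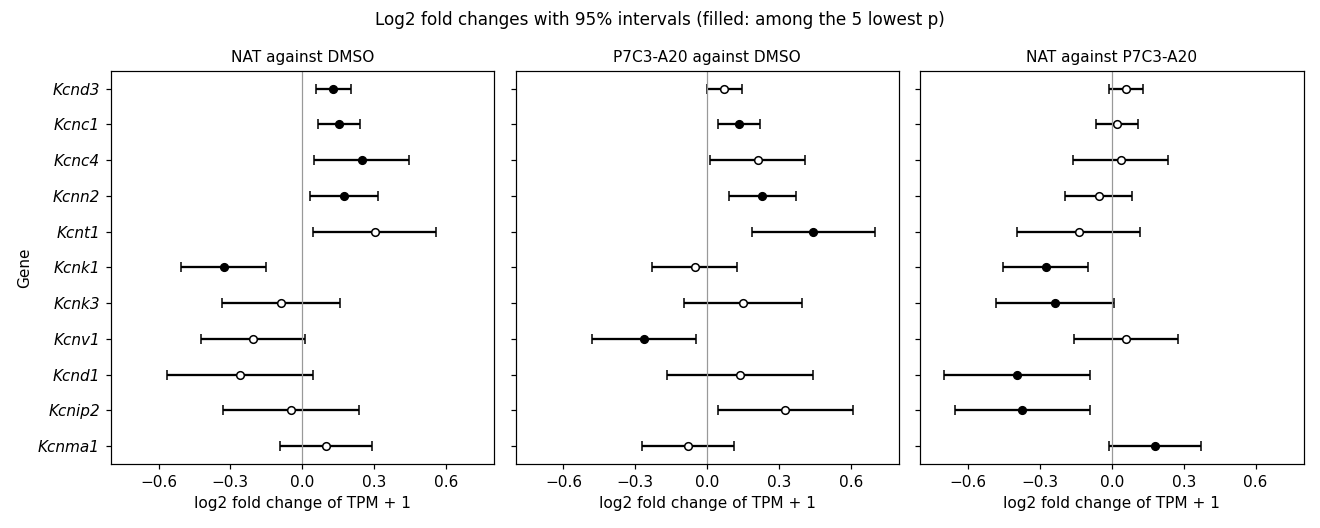
Log2 fold change of TPM + 1 (points) with the 95% interval of the limma fit (bars) for the same 11 potassium channel genes in NAT against DMSO, P7C3-A20 against DMSO and NAT against P7C3-A20; filled points mark the 5 lowest p of that comparison and the vertical line marks no difference. Kcnk1 lies at -0.33 and -0.28 in the NAT comparisons, and Kcnt1 has the highest value, 0.44, in P7C3-A20 against DMSO.

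Summed by class, the levels of the calcium- or sodium-activated genes were 111.8 to 121.3 TPM in DMSO, 124.5 to 139.5 in NAT and 126.7 to 138.4 in P7C3-A20. Kcnn2 makes up most of that sum. The voltage-gated sum was 480.9 to 499 TPM in DMSO, 506.2 to 520.9 in NAT and 501 to 513.3 in P7C3-A20. In both classes each compound's libraries lay above the DMSO libraries. The inward rectifier sum (11.06 to 13.53 TPM), the two-pore sum (105.2 to 130.7) and the auxiliary sum (300 to 322.7) overlapped between DMSO and each compound. All 90 members summed to 1035 ± 16.5 TPM (SD, n = 3) in DMSO, 1076 ± 19.2 in NAT and 1085 ± 18.5 in P7C3-A20. These sums are given as descriptions without a test.

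**Figure D4:**
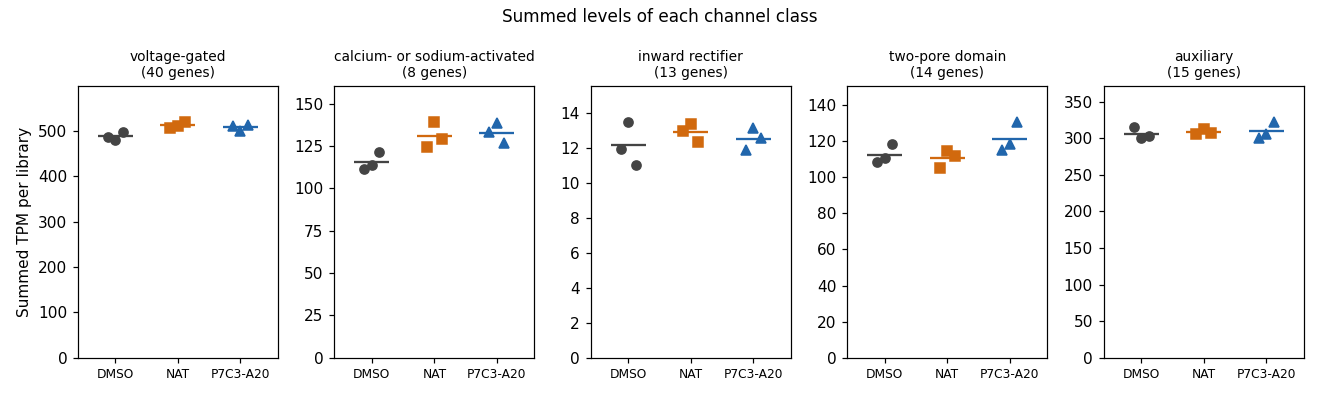
Summed TPM of all members of each channel class in every DMSO, NAT and P7C3-A20 library (points) with the group mean (line, n = 3); each axis starts at 0. The voltage-gated and the calcium- or sodium-activated sums are lowest in the 3 DMSO libraries (480.9 to 499 and 111.8 to 121.3 TPM), and in the other classes DMSO overlaps each compound.

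Within classes, 6 of the 7 calcium- or sodium-activated genes had a positive difference in each comparison with DMSO, with medians of 0.15 for NAT and 0.18 for P7C3-A20. The exceptions were Kcnu1 (-0.02) for NAT and Kcnma1 (-0.08) for P7C3-A20. The 23 voltage-gated genes had 14 positive differences in each, with medians of 0.02 and 0.07. Of all tested genes 63.5% had a positive difference for NAT and 55.2% for P7C3-A20. The 7 two-pore genes had medians of -0.01 and 0.11, and all 7 were lower in NAT than in P7C3-A20, with a median of -0.16. In that comparison 54.0% of all tested genes and 41.5% of the 53 members had a positive difference. Only Kcnk1 among the 7 two-pore genes had an unadjusted p under 0.05, and Kcnk10 was at -0.01.

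Proteins that bind, place or regulate these channels were read from a list of 27 genes, of which 17 passed the limit and 0 were called in any comparison by limma. Dpp6 and Dpp10, membrane partners of Kcnd channels, had means of 61.1 and 10.1 TPM, and Amigo1, a membrane protein that binds delayed rectifiers, of 14.3 TPM. The scaffold proteins Dlg4 and Dlg1, which bind Shaker-type channels, had means of 70.2 and 54.8 TPM, and the membrane adaptor Ank2 of 401 TPM. Of the related pacemaker channels, Hcn2 and Hcn3 had means of 7.95 and 4.69 TPM, and Hcn4 did not reach the limit. Abcc8 and Abcc9, the regulatory subunits of ATP-sensitive channels, stayed below it too.

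At an unadjusted p under 0.05, 4 of the 17 partner genes were found in NAT against DMSO, beside 11.7% of all tested genes. Dlg4 (0.17) and Ank2 (0.16) were higher on the log2 scale, and Dpp10 and Hcn3 (both -0.31) were lower. In P7C3-A20 against DMSO there were 3, all higher (Dlg4, Dpp6 and the ubiquitin ligase Nedd4l), beside 15.9% of all genes. NAT against P7C3-A20 gave 2, with Dpp6 at -0.18 and Ank2 at 0.12, beside 15.8%.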

How the data were processed

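Per the labels' protocols, RNA of 9 libraries was extracted with Trizol and made into TruSeq libraries for Illumina sequencing. The protocols do not say whether strand was kept, so overlapping and antisense genes cannot be told apart. The values used are TPM (transcripts scaled for gene length and library) as deposited by the authors, 1 row a gene name, with every column scaled to the same total. Bowtie 0.12.2 and the builds mm8 and mm9 stand in the submitters' processing notes without their roles. The gene annotation and read counter are not named there, and no genome positions are printed. In the gene names, 27 entries are dates and were kept as found.

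Because low TPM values move in steps of 1 read, whole reads were recovered for 19302 of 19302 genes with any value (tolerance 0.001); intervals cover these libraries' spread only. Genes with at least 1 TPM in at least 3 libraries were tested with limma-trend on log2(TPM + 1), pseudocount 1, all 9 libraries in 1 fit with group as the only factor and 6 residual degrees of freedom, two-sided, with Benjamini-Hochberg adjustment over all genes tested and calls below 0.05. The script was tested on simulated data. Tools were limma 3.58.1 in R 4.3.3, and Python 3.11.15 with numpy 2.4.6, pandas 2.3.3 and matplotlib 3.10.9. GC content is that of the longest GENCODE M21 transcript, and its trend was a spline with 5 degrees of freedom per library.

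Members follow the naming rule, and classes, the partner list and the marker lists were chosen with earlier results of these data known. Some genes and sequences are not reported here, though counts, sums and medians include them. Values in every library are given for the 10 members of highest mean and the 5 of lowest p in each comparison; other genes are given by family, and Kcnip1, Kcng1, the extremes of a range and the members that 1 count turns on were named after their values were seen. Alternatives were another pseudocount, another or no filter, quantile normalization, GC-trend removal, robust empirical Bayes, the compared libraries alone, voom on recovered reads, a replicate block, and each library left out.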

Additional observations from a re-analysis of the deposited data

How the results depend on the processing

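No potassium channel gene was called by any alternative except voom, which called 4 in P7C3-A20 against DMSO and 0 in the other comparisons. Of 740 alternative values of the 39 log2 differences given for single genes, 705 kept direction and side of the threshold, 4 passed it (the voom calls), 0 were lost and 31 changed sign. The cause was not tested for any change named here. Same-numbered libraries did not deviate together (correlations of -0.062 to 0.067), so the numbers were not taken to pair the samples. With the replicate block, genes called were 3 in NAT against DMSO, 7 in P7C3-A20 against DMSO and 1 in NAT against P7C3-A20, and with the block and the GC trend removed 1 in P7C3-A20 against DMSO. The block gave 6 members (1 higher) at an unadjusted p under 0.05 in NAT against P7C3-A20, beside 17.5% of all genes, where 3 were found without it. In NAT against DMSO, 1 gene was called with a pseudocount of 0.1, 2 with a minimum of 5 TPM, 7 with the 6 compared libraries alone and 36 by voom. In P7C3-A20 against DMSO these were 0, 0, 5 and 468, and in NAT against P7C3-A20 the 6 libraries gave 5 and voom 254. Leaving out 1 library gave 0 to 8, 1 to 4 and 0 to 2 genes in the same order of comparisons. The median of the members in NAT against DMSO was -0.0018 with the GC trend removed, with or without the replicate block, and 0.0171 to 0.0608 without 1 library. In P7C3-A20 against DMSO it was 0.0376 after quantile normalization, and in NAT against P7C3-A20 it was -0.0102 with a minimum of 5 TPM, -0.0702 by voom and -0.0469 to 0.0092 without 1 library.

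Sign changes fell on differences near 0 that had not been called. In NAT against DMSO, Kcna2 was -0.0163 with the GC trend removed (also with the replicate block) and -0.0125 after quantile normalization, and Kcnk2 -0.0035 after the latter. In P7C3-A20 against DMSO, Kcnip3 was -0.0290 with the GC trend removed and Kcna2 -0.0200 after quantile normalization. In NAT against P7C3-A20, Kcna2 was -0.0347 and Kcnd2 -0.0260 with the GC trend removed, and by voom Kcna2 was -0.0093, Kcnip3 -0.0158 and Kcnc1 -0.0019. Without 1 library the ranges in NAT against DMSO were -0.0002 to 0.0346 for Kcna2, -0.0274 to 0.0924 for Kcnk2 and -0.0440 to 0.0191 for Kcnd2. In P7C3-A20 against DMSO they were -0.0005 to 0.0631 for Kcnip3, -0.0343 to 0.0303 for Kcna2 and -0.0734 to 0.0177 for Kcnmb4. In NAT against P7C3-A20 they were -0.0152 to 0.0494 for Kcna2, -0.0143 to 0.0451 for Kcnip3 and -0.0551 to 0.0360 for Kcnmb4. A limit of 0.5 TPM would describe 59 members and one of 2 TPM 35. Depth limits the 26 described genes with fewer than 50 reads in some library, and 3 libraries a group limit all tests.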

Other observations

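Among the 37 members below the limit, 2 had uneven levels across the groups and were chosen after their values were seen. Kcna10, a Shaker-type gene, stood at 0.119, 0 and 0.218 TPM in DMSO, 0.118, 0 and 0.12 in NAT and 0.476, 0.529 and 0.57 in P7C3-A20. Its 3 P7C3-A20 libraries lay above the other 6, on at most 6 reads a library. Kcnj14, an inward rectifier, stood at 0.0821, 0.266 and 0.151 TPM in DMSO, 0.653, 0.617 and 0.248 in NAT and 0.395, 0.244 and 0.263 in P7C3-A20, on 1 to 8 reads a library, with overlapping groups. Neither gene entered the test, and at these read numbers no difference can be read from them.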
